A study of Homo sapiens with 2 samples.

Results

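The 10 genes described here are CCN2 (listed on the array as CTGF), CCN1 (listed as CYR61), F3, NT5E, TGM2, AMOTL1, AMOTL2, LATS2, PTPN14 and CRIM1. They were found by gene symbol, old or current, among the 10750 named genes that had a value on at least 1 array. All are secreted, surface, enzyme or signalling proteins whose transcripts respond to the transcriptional coactivator YAP. The set was chosen by function and with its log2 ratios on both arrays known, so these ratios are given as a description and no test is attached to them.

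The study asked how the gene expression of mesothelioma cells differs when CD26, a cell surface dipeptidyl peptidase encoded by DPP4, is lowered or raised. On the first array, RNA of CD26-depleted ACC-MESO1 cells was hybridised against RNA of control ACC-MESO1 cells (n = 1 array). On the second array, RNA of MSTO-211H cells that carried CD26 by transfection in the vector pLNCX2 was hybridised against RNA of control MSTO-211H cells (n = 1 array). Both are established mesothelioma cell lines, and all cells grew in RPMI medium with fetal calf serum. The labels name the depleting agent as siRNA in the design and as shRNA in the protocol. What was given to the control cells is not stated, nor whether the transfected cells were a pool or a clone. On both arrays Cy5 carried the control and Cy3 the manipulated cells, with no dye swap. Values are the authors' normalized log2 ratios of manipulated over control cells, so a log2 ratio of 1 is a 2-fold higher level in the manipulated cells. A ratio holds no level, so neither the amount of a transcript nor the mesothelial markers of the cells could be checked in absolute terms. It also cannot tell less RNA per cell from fewer expressing cells.

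The log2 ratio of DPP4 was -3.92 in CD26-depleted cells (15.1-fold lower) and 5.51 in CD26-transfected cells (45.7-fold higher), in the direction of the labels on both arrays. After depletion 10347 named genes had a value, after transfection 9359, and 8956 in both comparisons. The depletion array had 342 genes at or above 2-fold higher and 161 lower by as much, 4.86% in all, and the transfection array had 383 and 128, 5.46% in all. Centring the arrays on ribosomal protein genes instead moved every log2 ratio up by 0.35 after depletion and by 0.25 after transfection, and the counts became 853 higher and 42 lower after depletion and 685 and 53 after transfection. Different probes of a gene, the only repeat measurement, had a pooled SD of 0.42 after depletion (566 genes) and 0.45 after transfection (471 genes). That SD covers the spread between probes and not the spread between cultures. It was little below the SD of the log2 ratio over all genes, 0.48 after depletion and 0.50 after transfection. Over the 8956 genes, the log2 ratios of the 2 arrays had a Pearson correlation of 0.06, a description across genes, which are not independent replicates.

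YAP and its relative TAZ (WWTR1) are coactivators that enter the nucleus and work through the DNA-binding TEAD factors. The Hippo kinases, with LATS1 and LATS2 at the end of the cascade, phosphorylate YAP and keep it in the cytoplasm. Targets of YAP and TEAD include matricellular proteins such as CCN1 and CCN2, and also inhibitors of YAP, among them LATS2, the angiomotins and PTPN14, which close feedback loops. In mesothelioma this pathway is well known because NF2, its upstream activator, and LATS2 are recurrently inactivated in the tumour.

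A TEAD factor binds the letters GGAATG, and promoters in the RefSeq tables (GRCh38.p14) were searched for them to show what the members have in common at their start sites. The window ran from 250 bases before to 50 bases after a start. The table held 8 windows for 7 of the 10 genes, AMOTL2 having 2. It held none for CCN1, TGM2 and CRIM1. The upstream 250 bases are shown for CCN2, which had the highest log2 ratio after depletion, for F3, which was also high there, for PTPN14, which was near 0 on both arrays, and for AMOTL2, which was high after transfection. All 4 lie on the minus strand and read 5′ to 3′ toward the gene. They are chr6:131951373-131951622 for CCN2, chr1:94541760-94542009 for F3, chr1:214551603-214551852 for PTPN14 and chr3:134374448-134374697 for AMOTL2. Capitals mark GGAATG, or CATTCC where it lies on the other strand, except in F3, which had neither and where capitals mark TGANTCA, the letters bound by AP-1 factors.

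CCN2: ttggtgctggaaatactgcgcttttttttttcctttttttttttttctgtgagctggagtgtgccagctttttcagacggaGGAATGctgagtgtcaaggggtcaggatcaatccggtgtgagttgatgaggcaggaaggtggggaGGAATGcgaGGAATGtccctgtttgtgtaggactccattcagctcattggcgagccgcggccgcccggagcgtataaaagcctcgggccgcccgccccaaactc
F3: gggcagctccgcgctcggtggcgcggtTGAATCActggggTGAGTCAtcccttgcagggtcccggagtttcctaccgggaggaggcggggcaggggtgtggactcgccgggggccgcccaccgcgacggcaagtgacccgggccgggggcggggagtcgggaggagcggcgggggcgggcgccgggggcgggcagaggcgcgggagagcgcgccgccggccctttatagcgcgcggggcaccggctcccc
PTPN14: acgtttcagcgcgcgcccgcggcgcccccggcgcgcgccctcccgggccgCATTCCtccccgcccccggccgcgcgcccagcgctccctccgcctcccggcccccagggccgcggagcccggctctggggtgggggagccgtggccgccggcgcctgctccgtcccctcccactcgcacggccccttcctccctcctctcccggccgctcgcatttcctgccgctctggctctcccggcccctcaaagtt
AMOTL2: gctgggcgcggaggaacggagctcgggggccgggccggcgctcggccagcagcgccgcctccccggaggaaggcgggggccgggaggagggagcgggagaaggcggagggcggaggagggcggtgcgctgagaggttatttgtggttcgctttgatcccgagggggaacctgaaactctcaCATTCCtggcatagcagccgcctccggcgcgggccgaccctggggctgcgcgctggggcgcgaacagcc

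CCN2 held GGAATG 3 times, with first bases at -169, -104 and -95 from the start. Among all 35116 windows of this length in the table, 14.03% held the motif on either strand and 0.128% held it more than 2 times. PTPN14 held it once, at -200, AMOTL2 once, at -69 from the start that lies inside the gene, and LATS2 once, at position 10 after the start, where 1 is the first transcribed base. In all, 4 of the 7 genes with a window held the motif. F3, NT5E and AMOTL1 had no match in these windows. F3 held TGANTCA 2 times, at -223 and -210, and none of the other 6 genes held it, against 7.71% of all windows. The CArG box bound by SRF was in none of the 8 windows and in 1.29% of all windows. No matches of the 3 motifs overlapped in these windows. A match is a description of the letters and was not tested as a binding site.

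**Figure D1:**
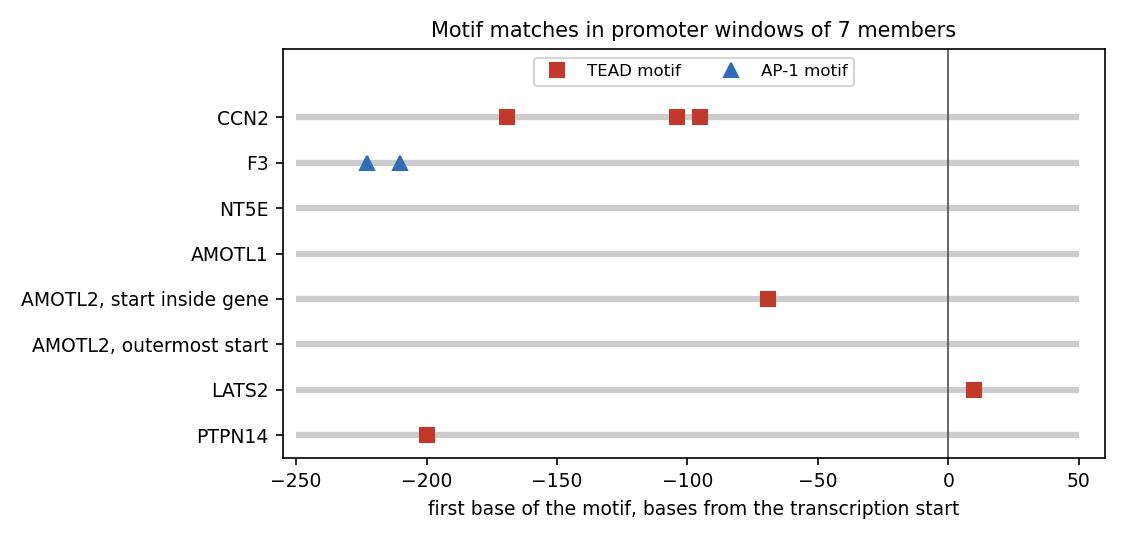
Positions of motif matches in the 8 promoter windows of 7 members, in bases from the transcription start (vertical line); squares are TEAD motif matches and triangles AP-1 motif matches on either strand. CCN2 has 3 squares, F3 has 2 triangles and no square, and NT5E and AMOTL1 have neither.

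After CD26 depletion, CCN2, F3, NT5E and TGM2 had the highest log2 ratios, all past 2-fold, followed by CCN1 at 0.85. CRIM1 and the measured inhibitors of YAP lay between -0.05 and 0.36. Of the 9 members with a value on the depletion array, 4 were at least 2-fold higher in the depleted cells and 0 were lower by as much. The share of all named genes was 3.31% for the higher and 1.56% for the lower direction. Since the members were picked with these values known, nothing is read from that contrast. Their median log2 ratio was 0.85, against 0.01 over all genes of the array, and 8 of the 9 were above 0, as were 51.3% of all genes.

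CCN2, also called connective tissue growth factor, is a secreted matricellular protein that binds integrins and growth factors. Its log2 ratio in depleted ACC-MESO1 cells was 2.83, or 7.11-fold, and only 5 of the 10347 genes had a higher value. In transfected MSTO-211H cells it was -0.01, the middle of the array. The gene lies at chr6:131948176-131951372 and was measured by 1 probe. Its value after depletion thus stood far outside the probe SD, while its value after transfection was within it.

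CCN1, or CYR61, is the closest relative of CCN2 in role, an immediate-early matricellular protein with the same integrin partners. Its log2 ratio was 0.85 after depletion (1.80-fold) and 0.15 after transfection, each from 1 probe. It was therefore short of 2-fold in the depleted cells but past it, at 1.20, with the array centred on ribosomal protein genes. CCN1 lies at chr1:85580761-85583950. Of the other 4 CCN genes, only CCN5, a member that lacks the C-terminal domain of its relatives, had a value. It was 0.63 after depletion and -0.37 after transfection, both short of 2-fold. CCN4 and CCN6 had a probe without a value on either array, and no probe was named CCN3.

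F3 encodes tissue factor, the membrane receptor for factor VII that starts blood coagulation. It was the only member with 2 probes, at 1.66 and 1.35 after depletion and -0.69 and -0.52 after transfection. The probes differed by 0.31 and 0.17, less than the pooled probe SD on either array. Their mean was 1.51 after depletion (2.84-fold) and -0.60 after transfection (1.52-fold lower). F3 was thus on opposite sides of 0 on the 2 arrays by both probes, and it was the lowest member after transfection, where 6.14% of genes were lower. The gene lies at chr1:94529173-94541759.

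NT5E encodes CD73, the surface enzyme that makes adenosine from AMP. Its log2 ratio was 1.15 after depletion (2.21-fold) and -0.26 after transfection, the second value being within the probe SD and -0.01 when centred on ribosomal protein genes. The gene lies at chr6:85450083-85495784. CRIM1, a membrane protein with cysteine-rich repeats that binds bone morphogenetic proteins, also had -0.26 after transfection. After depletion CRIM1 was at 0.12, so unlike NT5E it was within the probe SD on both arrays. It lies at chr2:36355778-36551135.

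TGM2 encodes transglutaminase 2, which cross-links proteins inside and outside the cell and binds fibronectin at the surface. Its log2 ratio after depletion was 2.63, or 6.18-fold, and only 9 genes were higher. The transfection array gave no value for its probe. Of the 1391 genes that, like TGM2, were measured only after depletion, 13.2% were past 2-fold, and of the 8956 with both values 3.56% were. TGM2 lies at chr20:38127385-38168475.

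Among the inhibitors of YAP, none of the 3 with a value on the depletion array was past 2-fold there, against 4.86% of all genes. With so few genes this is near the share. AMOTL1, an angiomotin that holds YAP at cell junctions, had 0.36 after depletion and 0.08 after transfection. The kinase gene LATS2 had 0.02 and 0.08, and PTPN14, a phosphatase that binds YAP, had -0.05 and -0.17. All 6 values were within the probe SD of their array. They lie at chr11:94706460-94876748 for AMOTL1, chr13:20973036-21061586 for LATS2 and chr1:214348700-214551602 for PTPN14.

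AMOTL2 is a further angiomotin. It had no value after depletion and a log2 ratio of 1.02 after transfection, or 2.02-fold, from 1 probe. It was the member past 2-fold on the transfection array, just over the line, and at 0.995 it fell short when both arrays were given a common spread. Of the 403 genes that, like AMOTL2, were measured only after transfection, 31.8% were past 2-fold, and of those with both values 4.28% were. AMOTL2 lies at chr3:134355345-134375417.

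On the transfection array, then, 1 of 9 measured members was at least 2-fold higher and 0 were lower by as much. The share of all genes of this array was 4.09% for the higher and 1.37% for the lower direction. The members' median was -0.01, against 0.01 over all genes, and 4 of the 9 were above 0, against 50.7% of all genes, or 6 of the 9 with the array centred on ribosomal protein genes, where the median was 0.24. The steps between neighbours in the order of log2 ratios were set against the SD of a difference of 2 genes, computed from the pooled probe SD. After transfection only the step of 0.87 between AMOTL2 and CCN1 exceeded it, and after depletion only the step of 1.12 between TGM2 and F3. After depletion the steps of 0.20 between CCN2 and TGM2 and of 0.49 between CCN1 and AMOTL1 were under that SD of 0.59. Apart from the step between TGM2 and F3, the order of the members there is not resolved step by step.

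**Figure D2:**
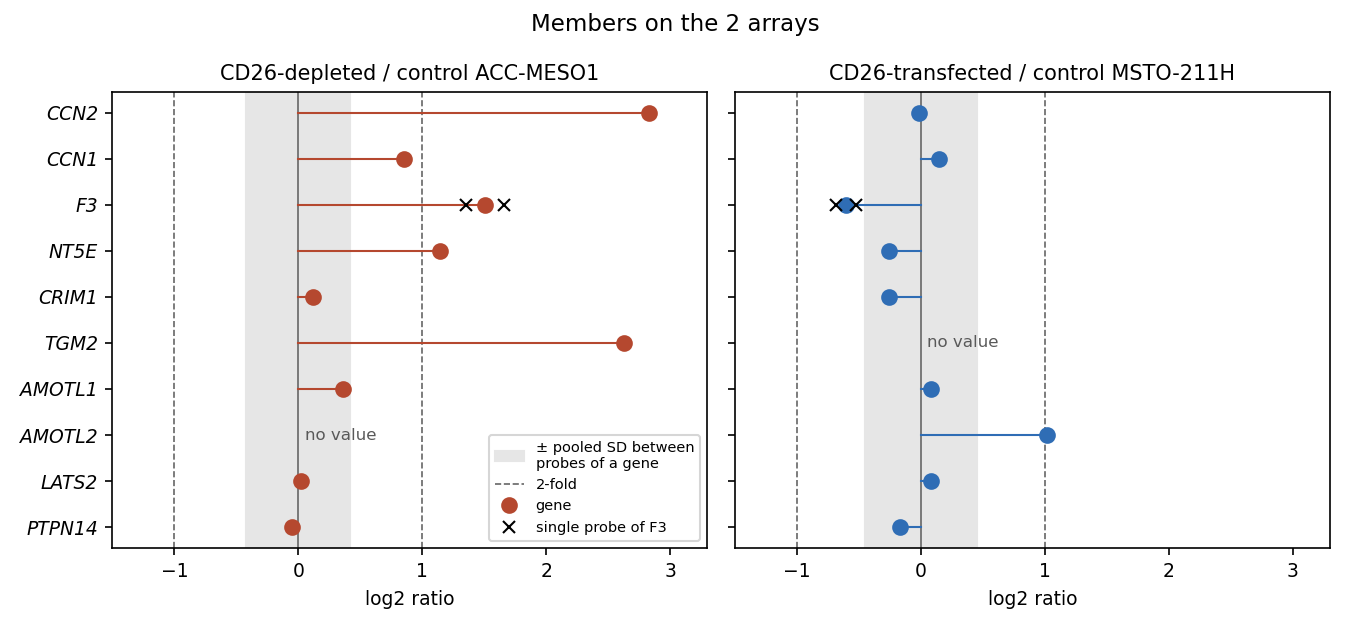
Log2 ratios of the 10 members on the depletion array (left) and the transfection array (right); circles are genes, crosses the 2 probes of F3, dashed lines 2-fold, and the grey band the pooled SD of a gene's probes (0.42 and 0.45). CCN2 and TGM2 lie above 2.5 after depletion, and on the right only AMOTL2 reaches 2-fold.

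Because CD26 was lowered in ACC-MESO1 and raised in MSTO-211H cells, both ratios were set side by side for the 8 members that had them. CCN2, F3, NT5E and CRIM1 were above 0 after depletion and below 0 after transfection, CCN1, AMOTL1 and LATS2 were above 0 on both, and PTPN14 was below 0 on both. With both arrays centred on ribosomal protein genes, CCN2 was above 0 on both arrays (3.18 and 0.24) and PTPN14 too. F3 was the member whose values were outside the probe SD on both arrays and of opposite sign, although its value after transfection was within it, at -0.35, with that centring. None was past 2-fold on both. Among all 203 genes at least 2-fold higher after depletion and measured on both, 44.3% were below 0 after transfection and 28 were at or below -0.5, a group that holds F3.

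**Figure D3:**
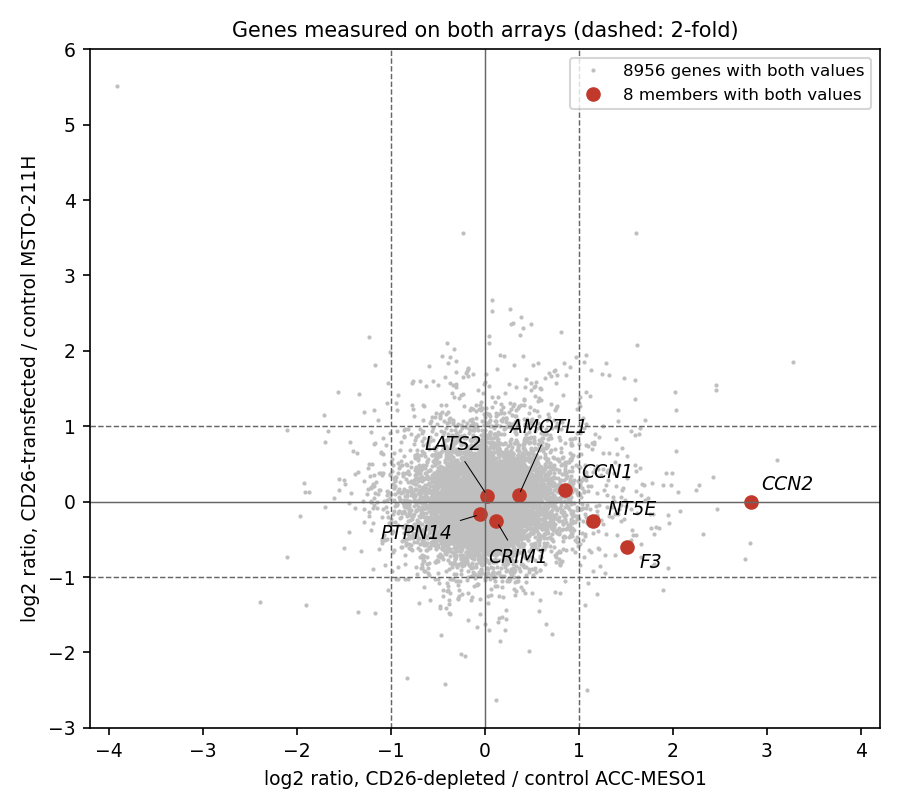
Log2 ratios of the 8956 genes measured on both arrays (grey), depletion on the horizontal and transfection on the vertical axis, with the 8 members in red and dashed lines at 2-fold. CCN2 lies far to the right at a vertical value of -0.01, and F3 lies to the lower right at 1.51 and -0.60.

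For the members past 2-fold with both values, the genes with the most similar pair of log2 ratios were taken by Euclidean distance over the 8956 genes. For CCN2 they were the lens crystallin gene CRYGC (2.47 and -0.09, distance 0.37), the complement gene C4A (2.42 and 0.33, distance 0.53) and the growth factor gene FGF1 (2.81 and -0.55, distance 0.54). C4A has a near-identical copy, C4B, which its probe may also detect. For F3 they were the small GTPase gene RRAD (1.49 and -0.55), the complement gene C3 (1.55 and -0.51) and the phosphatase gene DUSP1 (1.38 and -0.71), at distances of 0.05 to 0.16. For NT5E they were TEF, TGFB1I1 and S100A4, at distances of 0.01 to 0.03. Likeness here rests on 2 values, 1 from each array.

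Further targets of YAP and TEAD, outside the members, were mostly above 0 after depletion and mostly short of 2-fold. Of 14 such genes, 9 had a value, 8 were above 0 (9 with the array centred on ribosomal protein genes), and 1 was at least 2-fold higher (3 with that centring, ANKRD1 and AXL joining). That gene was GADD45A, a growth arrest protein induced by DNA damage, at 1.35. Next were the muscle ankyrin repeat gene ANKRD1 at 0.94, the receptor tyrosine kinase AXL at 0.70 and MYOF at 0.60. RBMS3 was the lowest, at -0.11. The median was 0.55, against 0.01 over all genes. Of all genes 51.3% were above 0 and 3.31% at least 2-fold higher, the latter 8.24% with ribosomal protein centring. Like the members, these targets were chosen with earlier results known, so nothing is read from these contrasts. After transfection 10 of the 14 had a value and the median was -0.12, or 0.13 with the array centred on ribosomal protein genes. FOXF2, a forkhead factor, was at least 2-fold lower (-1.05), as were 1.37% of all genes, and short of it with that centring. AXL was the highest at 0.28.

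Of 32 genes of the Hippo cascade and TEAD cofactors, 23 had a value after depletion and 0 were past 2-fold in either direction, against 4.86% of all genes. The median was 0.12, with 13 above 0, or 0.47 with 19 above 0 when centred on ribosomal protein genes, and the values as deposited had a range of -0.82 (TAOK2) to 0.70 (TAOK1, past 2-fold at 1.06 with ribosomal protein centring). YAP1 itself had 0.22 after depletion and 0.21 after transfection. WWTR1, which encodes TAZ, had -0.45 after depletion and no value after transfection. Of the TEAD factors, TEAD1 had 0.33 and -0.14, TEAD2 -0.24 and -0.16, TEAD3 0.22 and 0.66, and TEAD4 0.12 and -0.23. NF2, measured on the depletion array alone, was at -0.63, and LATS1 was at 0.25 and 0.01.

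After transfection, 20 of these 32 genes had a value. Of them 2 were at least 2-fold higher and 1 was lower by as much, against 4.09% and 1.37% of all genes. The median was 0.02, with 11 above 0. It was -0.06 when every autosome was centred separately, and 0.27, with 17 above 0, with ribosomal protein centring. The founding angiomotin, AMOT, was the highest at 1.52, against -0.31 after depletion. With AMOTL2 at 1.02 and AMOTL1 at 0.08, the 3 angiomotin genes did not have a common value after transfection. The kinase gene TAOK1, which acts upstream of the Hippo kinases, was at 1.30 after transfection. The atypical cadherin gene DCHS1 was the lowest, at -1.28.

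MRTF and its partner SRF switch on actin and cytoskeletal genes, and several targets, CCN2 and CCN1 among them, are shared with YAP. Of 17 such cytoskeletal genes, 14 had a value after depletion. Of these, 6 were at least 2-fold higher and 0 were lower by as much, against 3.31% and 1.56% of all genes. The median was 0.88, and 12 were above 0, as were 51.3% of all genes. The list was chosen with earlier results known, so nothing is read from that contrast. With ribosomal protein centring 8 were at least 2-fold higher, TPM2 and FHL2 joining, against 8.24% of all genes, and the median was 1.24. Those past 2-fold as deposited were the actin-binding protein gene TAGLN (1.89), tropomyosin 1, TPM1 (1.39), the gene for SRF itself (1.37), the myosin light chain gene MYL9 (1.36), the alpha-actinin gene ACTN1 (1.18) and the vinculin gene VCL (1.09). The 3 probes of TPM1 were at 1.89, 1.61 and 0.66. The smooth muscle calponin gene CNN1 was the lowest at -0.70, and the probes of CALD1 disagreed, at -1.13 and 0.13. With the probe of largest absolute log2 ratio per gene, 7 were at least 2-fold higher and 1, CALD1, was lower by as much. After transfection 13 had a value, and none was past 2-fold, against 5.46% of all genes. The median there was 0.06, and the range was -0.33 (CNN2) to 0.53 (TPM1).

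CCN proteins act through integrins and proteoglycans, and 2 of their receptors were past 2-fold after depletion. They were the heparan sulfate proteoglycan syndecan-4, SDC4, at 1.57, and the fibronectin receptor subunit ITGA5, at 1.29. Of 12 receptor genes, 10 had a value there, with a median of 0.44 and ITGB2 the lowest at -0.55. The share of all genes at least 2-fold higher was 3.31%. With ribosomal protein centring 3 of the 10 were at least 2-fold higher, ITGB5 joining at 1.27, and that share of all genes rose to 8.24%. After transfection SDC4 was the lowest receptor gene at -0.37 and ITGB3 the highest at 0.96. No receptor gene was past 2-fold in the 9 with a value on that array, or 1 was, ITGB3, when it was centred on ribosomal protein genes. Of all genes of that array 4.09% were at least 2-fold higher, or 7.32% with that centring.

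Of 12 genes that work with F3 in coagulation, 8 had a value after depletion, and the median was 0.11. None was past 2-fold, against 4.86% of all genes of the depletion array. The tissue factor inhibitor TFPI had 0.42 there, from probes at 0.59 and 0.24, and TFPI2 had 0.50, both above 0 as F3 was. After transfection 3 of 8 were at least 2-fold higher, against 4.09% of all genes of that array. The list was chosen with earlier results known, so nothing is read from this contrast. The 3 were the protein C receptor PROCR (1.54), the protease-activated receptor F2RL1 (1.54) and the thrombin receptor F2R (1.03). F2R had no value after depletion and was at 0.92 when every autosome was centred separately. Of the genes measured only after transfection, as F2R was, 31.8% were past 2-fold. TFPI2 was the lowest there at -0.60, the value F3 had, and TFPI was at -0.02. F2RL1 was at -0.63 after depletion and PROCR at 0.53.

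NT5E works in a chain of enzymes and receptors for adenosine, and CD26 itself is known to bind adenosine deaminase. Of 14 such genes, 11 had a value after depletion and 9 after transfection, and none was past 2-fold on either array. Of all genes 4.86% were past it after depletion and 5.46% after transfection, so for so short a list this is near the share. The adenosine receptor gene ADORA2B came nearest, at 0.98 after depletion, where it passed 2-fold with a common spread (1.001) or with ribosomal protein centring (1.33), and it was at -0.24 after transfection. ADA, the deaminase gene, had 0.20 after depletion and 0.28 after transfection. ENTPD1, which encodes CD39 and acts before NT5E, had -0.26 and -0.02. The medians were 0.03 and -0.02.

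Other transglutaminases did not share the level of difference seen for TGM2. The list of 8 genes also counts F13B, the carrier subunit of factor XIII, which is not itself a transglutaminase. Of the 8, 6 had a value after depletion, with a median of 0.32. None was past 2-fold, against 4.86% of all genes. With ribosomal protein centring 2 were at least 2-fold higher, TGM1 and F13B, against 8.24% of all genes. As deposited, TGM1 was at 0.76, F13B at 0.77, and the catalytic subunit of factor XIII, F13A1, the lowest at -0.81. After transfection F13B was at 1.67, the only 1 of 4 past 2-fold, against 5.46% of all genes. No measured transglutaminase of the list was thus past 2-fold there. Among secreted modulators of bone morphogenetic proteins that resemble CRIM1, CHRDL2 was at -0.31 after depletion and 1.87 after transfection, and CHRD at -0.39 and -0.08. The relatives of PTPN14 with a FERM domain, PTPN3, PTPN4 and PTPN21, lay between -0.38 and 0.21 on the 2 arrays.

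**Figure D4:**
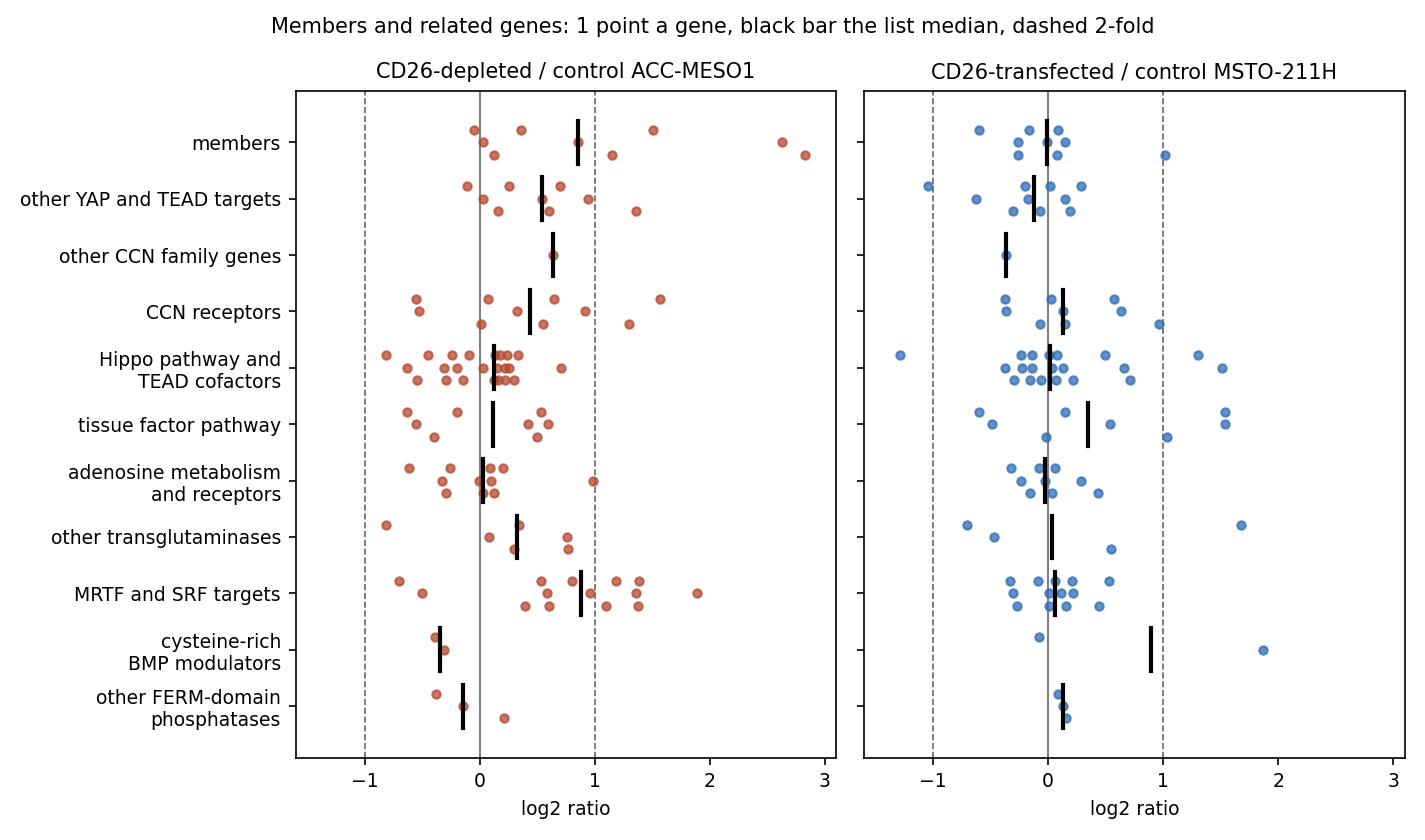
Log2 ratios of the members and of 10 lists of related genes on the depletion array (left) and the transfection array (right); each point is a gene, each black bar the median of its list, and dashed lines mark 2-fold. The bars of the members (0.85) and of the MRTF and SRF targets (0.88) lie farthest right after depletion, and after transfection they lie at -0.01 and 0.06.

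To see whether the region around a member was shifted, the 10 nearest measured genes on each side were taken. Around CCN2 the 20 neighbours had a median of -0.07 after depletion, with ARG1 (1.36) and EYA4 (-1.03) past 2-fold. Around TGM2 the median was 0.01 and no neighbour was past 2-fold. Around F3 it was -0.21 with none at least 2-fold higher, and around NT5E it was -0.04 with 1 at least 2-fold higher (SNAP91, 1.35). These 4 members thus stood above regions whose medians lay near or below 0.

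Around CCN1 the median was 0.31 after depletion, and 3 of 20 neighbours were at least 2-fold higher, up to the interferon-induced GTPase gene GBP1 at 1.98. The neighbours of AMOTL1 had a median of 0.07 after depletion, with 4 at least 2-fold higher, led by the apoptosis inhibitor gene BIRC3 at 2.77. Around AMOTL2 the median after transfection was 0.01, with 1 neighbour at least 2-fold higher (CLDN18, 1.13). LATS2 lies near an end of chromosome 13, whose 156 genes had a median of -0.25 after transfection. The 17 neighbours of LATS2 within reach had 0.10 there, near the 0.08 of LATS2 itself.

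**Figure D5:**
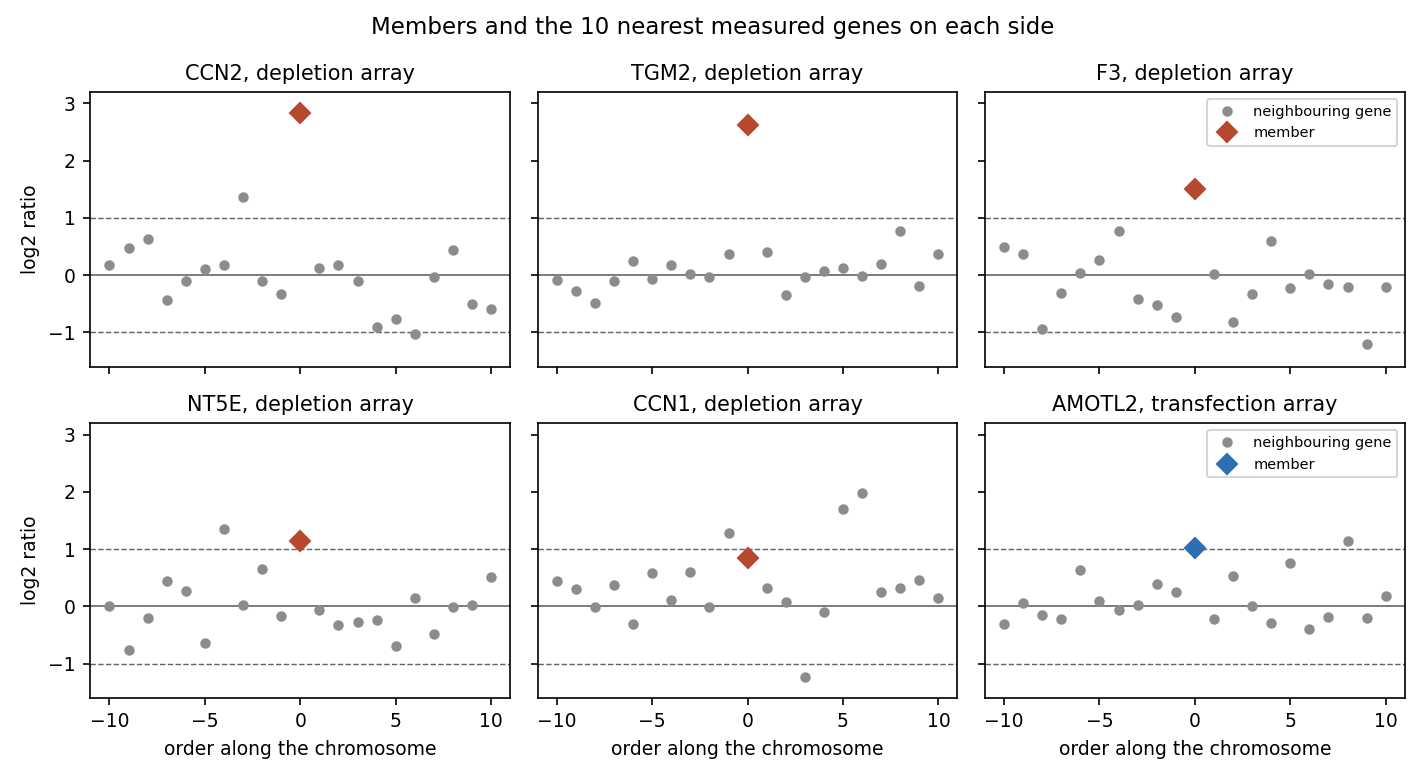
Log2 ratios of 6 members (diamonds) and of the 10 nearest measured genes on each side in chromosomal order (grey), for 5 members on the depletion array and AMOTL2 on the transfection array; dashed lines mark 2-fold. CCN2, TGM2 and F3 stand above all of their neighbours, and CCN1 lies below 3 of its own.

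Markers of other cell types were set beside these values. After depletion none of the measured fibroblast (6 of 6), endothelial (4 of 5) and leukocyte (2 of 5) markers was past 2-fold, against 4.86% of all genes. For so few markers this is near the share. Their log2 ratios ran from -0.89 (LUM) to 0.34 (CD14). After transfection the 5 fibroblast markers had a median of -0.60 and the 3 endothelial markers -0.42, and the 3 leukocyte markers 0.02, with CD3E, a T-cell gene, at 1.88, CD79A at 0.02 and CD14 at -0.30. CD3E had no value after depletion, and of the genes measured only after transfection 31.8% were past 2-fold. The 6 measured mesothelial markers had a median of 0.05 after depletion, from -0.37 (WT1) to 1.38 (ITLN1), with 3 above 0. After transfection their median was -0.14, from -1.31 (MSLN) to 0.66 (UPK3B), with WT1 at 0.57. Their part in the members' values was not tested.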

How the data were processed

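The 2 two-colour arrays were deposited as normalized log2 ratios of manipulated over control cells, the direction being given per the labels in the sample descriptions. Per the labels' protocols, TRIZOL RNA went through amino allyl amplification and dye coupling. How the background was corrected, how values were normalized and why some probes were left empty is not given in the sources used. Each array had a probe median of 0, and channel intensities were not used here.

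Of 24267 probes, 13395 had 1 gene symbol, 0 had several and 10872 had none. Symbols were updated through RefSeq (GRCh38.p14): 10076 symbols stood as listed, 2285 changed through a synonym and 113 with more than 1 candidate did not change. Several probes of 1 gene were averaged, with Python 3.11.15 and pandas 2.3.3. A gene was called when its log2 ratio was 1 or more, or -1 or less. The calling code was run on simulated data with changes set well past the line and noise far below the probe SD. That run checks the code only and says nothing on calls near 2-fold. With 1 array per comparison there is no p-value or replicate SD, and precision is limited by this number.

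The members and lists were chosen with earlier results of these data known. Besides the members and DPP4, genes named are those of the lists past 2-fold, their extremes and the nearest patterns. Others named, such as YAP1, the TEAD genes, WWTR1, NF2, LATS1, ANKRD1, MYOF, TFPI, ADA, ENTPD1, ADORA2B, TGM1, CALD1 and chromosomal neighbours, were chosen for their role or after their values were seen. Alternatives were other centrings, a common spread, the probe of largest absolute ratio, genes on both arrays, and thresholds of 0.5 and 1.5.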

Additional observations from a re-analysis of the deposited data

How the results depend on the processing

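With 1 array per comparison, no replicate could be left out. No paired analysis was possible because each group has 1 sample and no result comes from a test. The count of members past 2-fold on the depletion array, 4 as deposited, was 3 to 5 under the alternatives. On the transfection array it was 1 as deposited, resting on AMOTL2, and 0 with a common spread for both arrays, 0 among genes measured on both arrays, 0 at a threshold of 1.5 and 2 at a threshold of 0.5, where F3 joined as lower. These follow from the construction of each alternative, since AMOTL2 lies at 1.02 and has a value on that array alone. The members' median stayed within the pooled SD between probes under every alternative run, at 0.60 to 1.20 on the depletion array and -0.09 to 0.24 on the transfection array. All 72 recomputed values of single members moved by less than that SD. This too was largely set by construction. Centring on ribosomal protein genes shifts every value by 0.35 or 0.25, under that SD, and only F3 has more than 1 probe. Signs near 0 turned with that centring. Members above 0 were then 9 of 9 after depletion (8 as deposited, PTPN14 turning) and 6 of 9 after transfection (4 as deposited). Of 140 recomputed counts of related genes past 2-fold, 11 moved by over 1.5 times or changed from or to 0. Without channel intensities, dim probes could not be told from bright ones.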
